A study of Mus musculus with 2 samples.

Results

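A set of 34 neutrophil genes was followed in liver RNA of wild-type (WT) and Gbp5-deficient (GBP5-/-, KO) mice. Its members are named by symbol and were matched to the Ensembl genes of the count files through the GRCm38 annotation, which found all 34 among 52636 genes. All animals were C57BL/6, 9 weeks old, and were studied 6 h after D-galactosamine (GalN, 800 µg per g body weight) and lipopolysaccharide (LPS, 100 ng per g), so treatment is common to both groups. Each genotype is 1 library made from the pooled RNA of 4 livers. There are thus no replicates, and no difference below has a p-value. The 95% intervals (exact Clopper-Pearson, conditional on the reads of both libraries) cover counting error only and leave out variation between animals and libraries. Since reads are not independent molecules, the intervals may be too narrow for counting error as well. The sources used here do not describe how the Gbp5 allele was made, and no untreated liver was analysed here.

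Neutrophils are short-lived granulocytes that are made in the bone marrow and leave the blood for inflamed tissue, where they release granule proteins, reactive oxygen and DNA traps. Their granule proteins are transcribed in sequence during maturation: azurophil granule proteins in promyelocytes, specific granule proteins in myelocytes and metamyelocytes. The mature cell in tissue has largely switched those genes off and expresses calprotectin, chemoattractant receptors and pattern recognition receptors instead. In GalN and LPS injury neutrophils collect in the liver sinusoids and enter the parenchyma. Accordingly the members were ordered as 8 granule precursor genes (4 azurophil, 4 specific), 17 genes of mature neutrophils (8 effectors, 9 surface receptors) and 9 genes of wider expression, several of which hepatocytes also express.

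The WT library held 19864848 reads on Ensembl genes and the KO library 15750875, a depth 1.26 times as great in WT. Values are reads divided by this total and scaled to 1000000 (CPM), and a count of 0 allows up to 3 reads, 0.151 CPM in WT and 0.190 CPM in KO. Levels of different genes are compared only as FPKM, which also divides by exon length. The targeted gene, Gbp5, had 161.6 CPM in WT and 55.43 in KO, so the library labelled KO was lower but kept reads. A gene was counted as different by size alone, at a CPM ratio of 2-fold, among 14864 genes with 20 or more reads over both libraries. Of those, 12.4% were at least 2-fold lower in KO, 4.59% at least 2-fold higher and 54.2% lower at any size, and their median log2 ratio of KO to WT was -0.07. The ratio fell with the GC content of the transcript, with a Spearman rho of -0.44 across 14819 genes, which are not independent replicates. A second value, corrected for GC content and length, is therefore given for members that it moved out of their counting interval or across 1. For genes outside the members it is given where it turned the direction, and for some others. On that scale 49.7% of genes lay below 0, and 7.05% were lower by 2-fold or more.

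The neutrophil genes as a whole were present in both libraries, and most lay modestly lower in KO. Of the 30 members with 20 or more reads, 21 (70%, against 54.2% of all genes) were lower in KO and 9 higher, with a median log2 ratio of -0.28. At 2-fold, 3 of 30 (10%, against 12.4% of all genes) were lower, namely Cebpe, Ltf and Padi4. None was higher, against 4.59% of all genes, so large differences were no more common than in the background. At 1.5-fold, 10 of 30 (33.3%) were lower, against 24.9% of all genes. After the GC and length correction the median was -0.37 and 22 of 30 (73.3%, against 49.7% of all genes) lay below 0. In bulk tissue, fewer neutrophils and less RNA per neutrophil cannot be told apart.

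**Figure D1:**
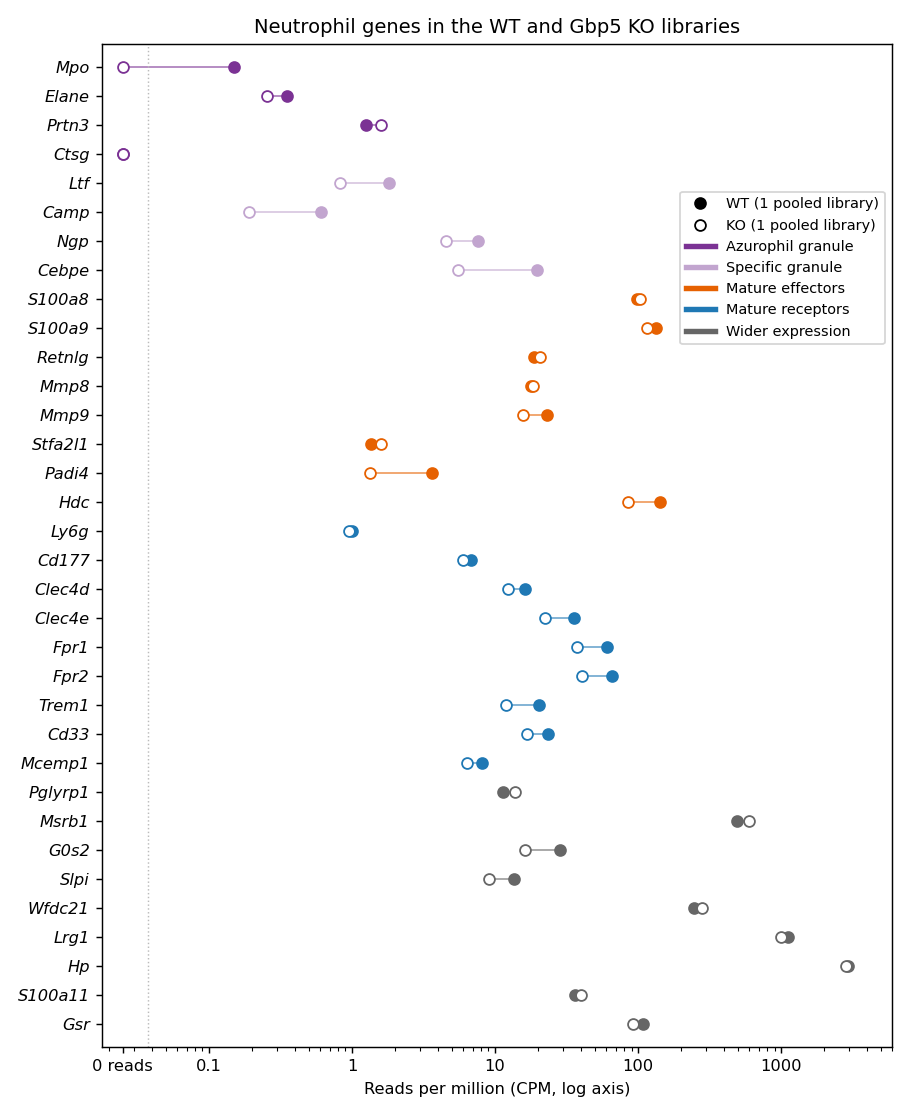
Level of each of the 34 members in CPM on a log axis, with the WT library as a filled and the KO library as an open circle, coloured by group; points left of the dotted line stand for 0 reads. Azurophil genes other than Prtn3 lie toward the left (Ctsg at 0 in both libraries, its circles on top of each other), while S100a8 lies near 100 CPM in both libraries, at 98.77 and 103.1.

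Transcripts of 3 of the 4 azurophil granule genes were close to the detection limit in both libraries. Mpo, which encodes myeloperoxidase, had 3 reads in WT and 0 in KO, an interval of the ratio that reaches up to 3.05. Elane, neutrophil elastase, had 7 and 4 reads, and Ctsg, cathepsin G, had 0 in both. These counts cannot show a difference at this depth. Prtn3, proteinase 3, had 25 reads in each library (1.26 CPM in WT, 1.59 in KO, ratio 1.26, interval 0.695 to 2.29), but 159 exonic bases of Prtn3 overlap Plppr3 on the opposite strand, a gene with 199 and 101 reads, and the counting is not stated to use strand, so its reads are uncertain. The 4 genes together came to 35 reads in WT and 29 in KO, a summed ratio of 1.05 (0.616 to 1.76).

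The 3 genes grouped here under the specific granule that had 20 or more reads, Ngp, Ltf and Cebpe, were lower in KO, on both scales. Pglyrp1, also of that granule but grouped with the genes of wider expression, had a ratio of 1.21 (0.996 to 1.46). Ngp (ENSMUSG00000032484, chromosome 9, 110419747 to 110423012, plus strand, GRCm38), neutrophilic granule protein, had 7.55 CPM in WT and 4.51 in KO, or 150 and 71 reads, and was 1.68-fold lower (interval 1.26 to 2.25). Ltf, the iron-binding lactoferrin, had 1.81 and 0.825 CPM on 36 and 13 reads, 2.20-fold lower (1.14 to 4.51). Camp, the cathelicidin antimicrobial peptide, had 12 and 3 reads, and the interval of its ratio, 0.0571 to 1.17, includes no difference. Cebpe (ENSMUSG00000052435, chromosome 14, 54710360 to 54712174, minus strand), the C/EBP family transcription factor that drives the specific granule programme, had 19.73 CPM in WT and 5.52 in KO, or 392 and 87 reads, and was 3.57-fold lower (2.83 to 4.56). It was the farthest from 1 of all members with 20 or more reads. Its transcript is 61.5% GC, and the tenth of genes highest in GC had a median log2 ratio of -0.84 against -1.84 for Cebpe; after the correction Cebpe was 2.54-fold lower. Per length, Cebpe reached 15.90 FPKM in WT and Ngp 6.18, above every azurophil gene. The levels of the other precursor genes overlapped between the granule classes: Camp had 0.797 and Ltf 0.525 FPKM in WT, against 0.727 for Prtn3, 0.358 for Elane and 0.0441 for Mpo.

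Sequences upstream of the start site show the letters read by the factors of this lineage. C/EBP proteins and PU.1, the product of Spi1, are the principal transcription factors of granulocyte genes, and the levels of Cebpe (above) and of Spi1, Cebpa and Cebpb (further on) were measured here too. The 250 bases before the RefSeq start (GRCm38.p6) were found for 29 members and searched on both strands for the C/EBP core TTGCNNAA and the PU.1 core GAGGAAGT, which do not overlap in the windows printed here. The C/EBP letters occurred before 8 of 29 members (27.6%), against 9.56% of 32851 such windows of all genes, and the PU.1 letters before 6 (20.7%), against 2.44%. Elane, Mpo and Prtn3 held the PU.1 letters, as did S100a8, Mmp8 and Ly6g. The C/EBP letters were found before Ltf, Ngp, S100a9, Retnlg, Mmp8, Ly6g, Clec4e and Slpi. The windows of the azurophil gene Ctsg and the specific granule gene Camp held neither. Nor did those of Hdc, Padi4, Stfa2l1, Fpr1, Fpr2, Trem1, Clec4d, Cd177, Cd33 and Mcemp1. Of the genes of wider expression, G0s2, Lrg1, Msrb1, Pglyrp1 and S100a11 held neither. Members were counted by gene, and a gene such as Ly6g can have more than 1 window, whereas the share over all genes is by window. For S100a8, Mmp8, Retnlg, Trem1, Msrb1 and a Ly6g window, the bases after the start were not found in an annotated transcript of the gene. Those starts are less certain. A match is a run of letters and not a measured binding site. Printed are 1 azurophil gene, 2 specific granule genes, 1 mature effector and 1 mature receptor, 5′ to 3′, with matches in capitals.
Elane, chr10:79886062-79886311, plus strand: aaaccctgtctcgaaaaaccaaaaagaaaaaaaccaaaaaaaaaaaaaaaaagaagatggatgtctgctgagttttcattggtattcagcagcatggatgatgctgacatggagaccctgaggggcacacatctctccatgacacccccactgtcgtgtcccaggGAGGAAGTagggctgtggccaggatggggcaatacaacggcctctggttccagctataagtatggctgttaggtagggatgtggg
Ngp, chr9:110419558-110419807, plus strand: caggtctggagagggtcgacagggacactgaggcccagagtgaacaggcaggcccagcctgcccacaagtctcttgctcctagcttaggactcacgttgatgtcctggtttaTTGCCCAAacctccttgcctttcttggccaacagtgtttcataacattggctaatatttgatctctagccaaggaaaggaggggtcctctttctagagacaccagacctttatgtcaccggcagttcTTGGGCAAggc
Ltf, chr9:111019042-111019291, plus strand: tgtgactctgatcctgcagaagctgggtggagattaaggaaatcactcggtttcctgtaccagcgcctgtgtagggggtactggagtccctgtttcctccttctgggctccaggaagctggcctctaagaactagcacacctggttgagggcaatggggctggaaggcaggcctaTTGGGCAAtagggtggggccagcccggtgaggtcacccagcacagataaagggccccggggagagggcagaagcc
S100a9, chr3:90695722-90695971, minus strand: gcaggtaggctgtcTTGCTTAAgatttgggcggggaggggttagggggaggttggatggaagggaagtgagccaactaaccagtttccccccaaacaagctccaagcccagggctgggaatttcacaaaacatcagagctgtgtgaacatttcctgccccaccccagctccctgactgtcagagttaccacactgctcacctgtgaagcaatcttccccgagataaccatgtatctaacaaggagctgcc
Clec4e, chr6:123289872-123290121, minus strand: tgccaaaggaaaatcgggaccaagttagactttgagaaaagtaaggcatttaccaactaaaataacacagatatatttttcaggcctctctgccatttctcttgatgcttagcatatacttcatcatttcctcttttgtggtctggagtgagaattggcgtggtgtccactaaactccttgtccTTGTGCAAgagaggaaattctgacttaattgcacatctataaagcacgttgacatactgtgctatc

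The matches differ in place as well as kind. In Elane the PU.1 run begins 85 bases before the start, in Ngp the C/EBP runs begin 138 and 11 bases before it, and in Ltf 75 bases before it. In S100a9 the C/EBP run begins 236 bases upstream and in Clec4e 66 bases upstream.

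Among mature effector genes the most abundant markers, the calprotectin pair, differed little in CPM and were lower in KO after the correction. S100a8 and S100a9 encode the subunits of calprotectin, the main cytosolic protein of neutrophils. S100a8 had 98.77 CPM in WT and 103.1 in KO (ratio 1.04, interval 0.977 to 1.12). S100a9 had 133.7 and 115.5 CPM, 1.16-fold lower (1.09 to 1.23), so the intervals of this pair did not overlap although the difference between them was small. S100a8 (ENSMUSG00000056054, chromosome 3, 90668978 to 90670035, plus strand) and S100a9 (ENSMUSG00000056071, chromosome 3, 90692632 to 90695721, minus strand) lie in 1 cluster of S100 genes, and their reads summed to a ratio of 0.940 (0.899 to 0.983). After the correction S100a8 had a ratio of 0.875 and S100a9 was 1.38-fold lower. Per length S100a9 was the more abundant, at 256.1 FPKM in WT and 221.2 in KO, against 142.3 and 148.6 for S100a8.

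Further effectors of mature neutrophils fell on both sides. Retnlg, a resistin-like secreted protein, had 18.63 CPM in WT and 20.63 in KO (ratio 1.11, interval 0.952 to 1.29). Mmp8, the neutrophil collagenase, had 17.82 and 18.35 CPM (ratio 1.03, 0.878 to 1.21). Stfa2l1, a stefin protease inhibitor, had 27 and 25 reads (ratio 1.17, 0.65 to 2.09), and its near-identical relatives make its reads uncertain. The intervals of these 3 genes include no difference, and after the correction all 3, like S100a8, were slightly below 0 on the log2 scale, between -0.20 and -0.04. In contrast Mmp9, the gelatinase of the tertiary granule, was lower, with 23.21 CPM in WT and 15.62 in KO, 1.49-fold (1.27 to 1.74), or 1.21-fold after the correction.

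Hdc and Padi4 were lower in KO as well. Hdc, histidine decarboxylase, which makes histamine, had 143.2 CPM in WT and 85.71 in KO, 1.67-fold lower (1.57 to 1.78) and 1.64-fold after the correction. Mast cells and basophils also express Hdc. Of their 8 markers 7 had under 20 reads: Cpa3 and Mcpt4 had 1 read in WT and 0 in KO, Mcpt8 had 3 and 0, Cma1 2 and 1, Tpsb2 5 and 2, Ms4a2 8 and 0, and Fcer1a 0 in both. The other was Kit, a receptor that other cells express too, with 538 and 378 reads and a ratio of 0.886 (0.775 to 1.01), which carried most of the list's 28.09 CPM in WT and 24.19 in KO. The part of these cells in the Hdc difference was not tested. Padi4, the citrullinating enzyme needed for release of DNA traps, had 3.62 CPM in WT and 1.33 in KO, on 72 and 21 reads, 2.72-fold lower (1.65 to 4.65), or 1.89-fold after the correction, under the 2-fold mark.

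All 9 surface receptors were lower in KO, against 54.2% of all genes, with a median log2 ratio of -0.51. After the correction 8 of 9 lay below 0, against 49.7% of all genes. Of the 8 effectors 4 were lower before the correction and all 8 after it. Fpr1 and Fpr2, receptors for formylated bacterial and mitochondrial peptides, had 61.06 and 65.74 CPM in WT and 37.59 and 40.32 in KO. They were 1.62-fold (1.47 to 1.80) and 1.63-fold lower (1.48 to 1.80), and 1.94-fold and 1.95-fold lower after the correction. Fpr1 (ENSMUSG00000045551, chromosome 17, 17876471 to 17883940, minus strand) and Fpr2 (ENSMUSG00000052270, chromosome 17, 17887824 to 17893952, plus strand) are neighbours and similar in sequence, and 48 exonic bases of Fpr2 overlap Fpr3, which had 1 read in WT and 0 in KO. Trem1, an amplifier of Toll-like receptor signals, had 20.24 and 12.00 CPM and was 1.69-fold lower (1.42 to 2.02). Clec4e (Mincle), a receptor for mycobacterial glycolipid and for products of dead cells, had 35.44 and 22.47 CPM, 1.58-fold lower (1.39 to 1.80) and 1.95-fold after the correction. Its neighbour Clec4d (MCL) had 16.21 and 12.25 CPM, 1.32-fold lower (1.10 to 1.59) and 1.64-fold after the correction.

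The other 4 receptors include the identity markers of neutrophils, and for 3 of them the interval includes no difference. Ly6g, the classical surface marker of mouse neutrophils, had 20 and 15 reads, and its ratio of 0.946 has a wide interval (0.451 to 1.94). Cd177, a surface glycoprotein of neutrophils, had 6.75 CPM in WT and 5.97 in KO, for a KO to WT ratio of 0.885 (0.672 to 1.16), and lay at 1.09 after the correction, the single receptor whose direction turned. Mcemp1 had 8.05 and 6.41 CPM (ratio 0.796, 0.614 to 1.03). Cd33, a sialic acid binding lectin of myeloid cells, had 23.61 and 16.63 CPM and was 1.42-fold lower (1.22 to 1.66), or 1.71-fold after the correction.

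**Figure D2:**
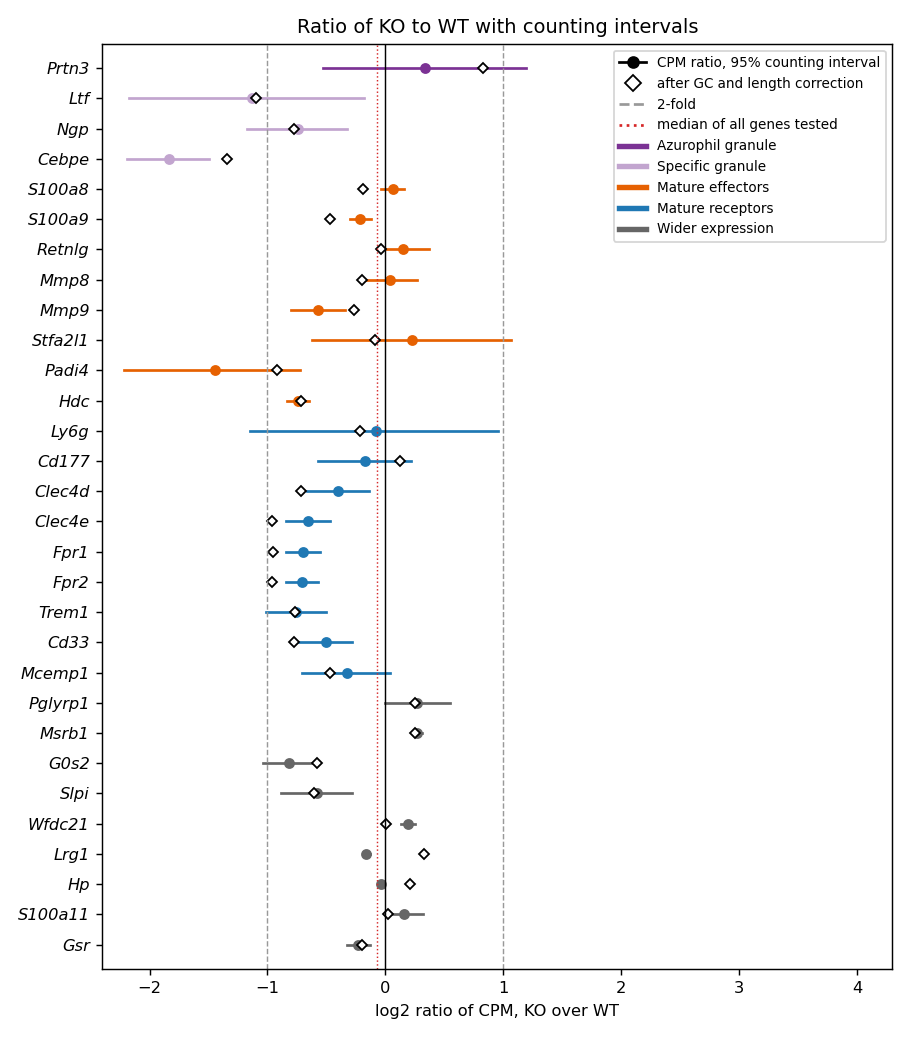
Log2 ratio of CPM, KO over WT, for the 30 members with 20 or more reads, with 95% counting intervals as bars and the GC and length corrected value as an open diamond; dashed lines mark 2-fold and the dotted line the median of all genes tested. The receptors Fpr1, Fpr2, Trem1 and Clec4e lie together left of 0, S100a8, Retnlg and Mmp8 lie at 0, and Cebpe lies farthest left.

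As sums, the receptor and effector groups of mature genes differed in size. The 9 receptors went from 238.1 CPM in WT to 154.6 in KO (ratio 0.649, 0.618 to 0.682), and the 8 effectors from 440.3 to 361.8 (ratio 0.822, 0.795 to 0.850). Receptor reads made up 35.1% of mature reads in WT (34.3 to 35.9) and 29.9% in KO (28.9 to 30.9), a ratio of ratios of 0.790 (0.744 to 0.839). The corrected medians kept this order, at -0.77 for receptors and -0.23 for effectors. The effector sum rests on S100a8, S100a9 and Hdc, which do not move alike.

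Precursor and mature genes were then set against each other within each library. Precursor reads were 4.43% of precursor and mature reads in WT (625 of precursor against 13476 of mature genes, lower bound 4.098, upper bound 4.785) and 2.44% in KO (203 against 8134, 2.12 to 2.79). The precursor share relative to mature genes was therefore lower in KO by a factor of 0.538 (0.456 to 0.633). Cebpe alone supplied most precursor reads, and it encodes a nuclear factor and no granule protein. Which cells carried the Cebpe reads was not tested. Without Cebpe the shares were 1.70% (1.49 to 1.93) and 1.41% (1.16 to 1.68), and the factor was 0.825 with an interval from 0.653 to 1.04 that includes no difference. The precursor sum was 2.44-fold lower (2.08 to 2.87) with Cebpe and 1.59-fold lower (1.27 to 2.01) without it, and the mature sum 1.31-fold lower (1.28 to 1.35). After the correction the log2 ratio of the sums was -0.999 for precursor and -0.562 for mature genes. Prtn3, whose reads are uncertain, supplied 25 of the remaining reads in each library. Without Cebpe and Prtn3 the shares were 1.52% (1.32 to 1.74) and 1.11% (0.892 to 1.36), the factor was 0.725 (0.559 to 0.933), and the precursor sum was 1.81-fold lower (1.41 to 2.35). By uncorrected reads the factor was thus below 1 with and without these genes. Its size moved with Cebpe, and whether its interval included 1 without Cebpe turned on Prtn3. The corrected sums above include Cebpe, and the factor was not computed after the correction, with or without these genes. It also rests on how genes were grouped. Pglyrp1, a specific granule protein counted with the genes of wider expression, had a ratio of 1.21 (0.996 to 1.46), and the factor with it was not computed. Of the 8 precursor genes 4 had too few reads for a ratio of their own.

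Members of wider expression carried most of the reads. Hp (haptoglobin) and Lrg1 (leucine-rich alpha-2-glycoprotein), secreted acute-phase proteins that hepatocytes make in far larger amounts than neutrophils, had 2920 and 1111 CPM in WT and 2846 and 992.3 in KO. Hp was 1.03-fold lower (1.01 to 1.04) and Lrg1 1.12-fold lower (1.10 to 1.14), but both turned to higher in KO after the correction, by log2 differences of 0.21 and 0.33. Wfdc21 had 245.0 CPM in WT and 279.7 in KO (ratio 1.14, 1.10 to 1.19; 1.002 after the correction). Msrb1, a methionine sulfoxide reductase that contains selenium, had 494.8 and 597.3 CPM, a ratio of 1.21 (1.17 to 1.24). S100a11, a widely expressed calcium-binding protein, had 35.99 and 40.19 CPM, a ratio of 1.12 (1.002 to 1.24).

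The remaining 4 genes of this group include secreted defence proteins. Pglyrp1, a peptidoglycan-binding protein of the specific granule, had 11.43 CPM in WT and 13.78 in KO, and its ratio of 1.21 (0.996 to 1.46) did not follow Ltf and Ngp. Slpi, an inhibitor of elastase and cathepsin G, had 13.59 and 9.08 CPM, 1.497-fold lower (1.22 to 1.85). G0s2, an inhibitor of the triglyceride lipase ATGL that is also induced in activated leukocytes, had 28.49 and 16.13 CPM, 1.77-fold lower (1.52 to 2.06) and 1.49-fold after the correction. Gsr, glutathione reductase, had 107.5 and 91.61 CPM, 1.17-fold lower (1.10 to 1.26). The median log2 ratio of the 9 genes was -0.04, near that of all genes.

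**Figure D3:**
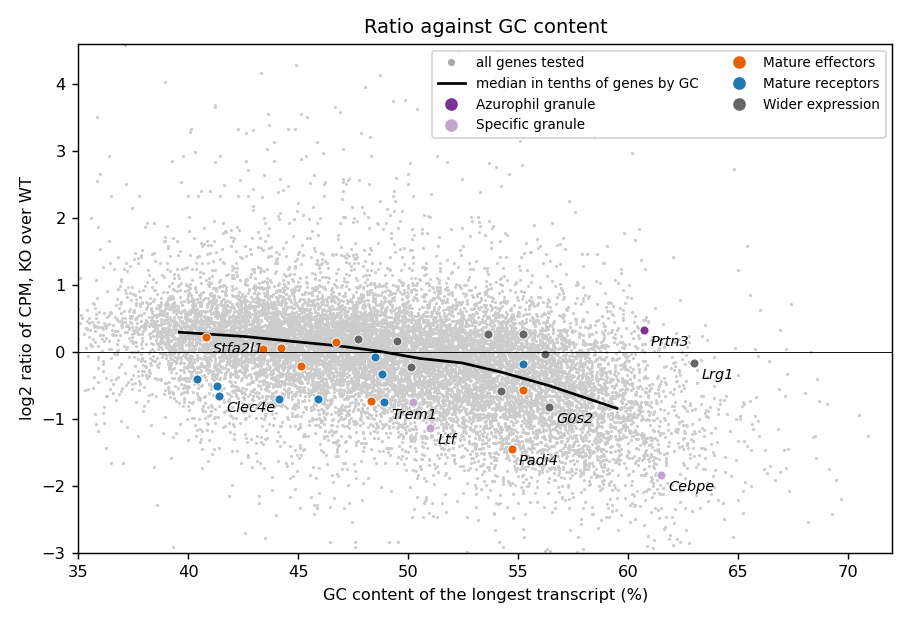
Log2 ratio of CPM, KO over WT, against transcript GC content in percent for all genes tested (grey, axis limited to the central range) and the 30 members with 20 or more reads (coloured by group); the black line joins the medians of 10 equal groups of genes by GC. The receptors, at 40.4% to 55.2% GC, lie under the line except Cd177. Cebpe, at 61.5%, lies past the end of the line and below its last value.

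The position of the members against GC content differed between groups. The 9 receptors had a median GC of 45.9% and the precursor genes with 20 or more reads 55.9%. Genes of low GC tended to be higher in KO, with a median log2 ratio of 0.30 in the tenth lowest in GC. The correction therefore moved the receptor median from -0.51 to -0.77 and left that of the precursor genes at -0.94. After it 16 of 17 mature genes (94.1%) lay below 0, against 49.7% of all genes. On that scale 2 of 30 members, Cebpe and Ltf (6.67%), were at least 2-fold lower, close to the 7.05% of all genes. The part of GC content in these differences was not tested.

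Companion lists around the members showed where the neutrophil axis differed beyond them. Among ligands, Csf3, the growth factor that releases neutrophils from marrow, was lowest, at 39.62 CPM in WT and 11.94 in KO, 3.32-fold lower (2.83 to 3.91). The attractants fell on both sides: Cxcl1 had a ratio of 1.37 (1.31 to 1.44), Cxcl2 1.19 (1.15 to 1.23) and Ppbp 0.998 (0.825 to 1.21), and Cxcl2 stood at 0.997 after the correction. Lower in KO were Cxcl3, 1.65-fold (ratio 0.607, 0.457 to 0.800), and Ccl3, 1.57-fold (ratio 0.637, 0.579 to 0.701), while Cxcl5 had a ratio of 0.797 (0.620 to 1.02). The inflammatory cytokine gene Il1b was 1.64-fold lower. Csf2 and Il17a had 2 reads or fewer in each library. Of the 9 ligands with 20 or more reads, 7 (77.8%) were below 1, against 54.2% of all genes. After the correction 8 (88.9%) were below 1, against 49.7% of all genes. At least 2-fold lower was 1 (11.1%), against 12.4% of all genes.

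Receptors of the neutrophil axis outside the members were lower throughout. All 14 reported with 20 or more reads were below 1, against 54.2% of all genes. At least 2-fold lower were 6 (42.9%), against 12.4% of all genes. After the correction Ltb4r1 turned above 1, and 5 (35.7%) were at least 2-fold lower, against 7.05% of all genes. The lowest were Pirb, an inhibitory receptor, 2.43-fold (2.23 to 2.65), Itgal, the alpha chain of LFA-1, 2.42-fold (2.27 to 2.60), and Itgb2, the shared beta chain of the leukocyte integrins, 2.29-fold (2.13 to 2.47). The highest were Ltb4r1, the leukotriene B4 receptor, at 0.890 (0.602 to 1.31), Il1r2, a decoy receptor for interleukin 1, at 0.830 (0.734 to 0.938), and Cxcr4, the receptor that holds neutrophils in the marrow, at 0.791 (0.648 to 0.962). Itgam, the alpha chain that pairs with Itgb2 in Mac-1, had 14.65 and 11.17 CPM, a ratio of 0.763 (0.629 to 0.923). The receptor genes most tied to neutrophils, Csf3r and Cxcr2, were 2.19-fold and 1.83-fold lower, or 1.78-fold and 2.03-fold after the correction. These 2 and Itgam were chosen after their values were seen.

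Genes for capture, oxidant production and transcription moved in the same direction. On the endothelial side all 6 capture molecules were below 1, against 54.2% of all genes. Sele was 1.84-fold lower, Selp 1.74-fold, Icam2 1.52-fold and Icam1 1.49-fold, whereas Vcam1 and Pecam1 had ratios of 0.907 and 0.957, the latter 1.10 after the correction. The 5 genes reported of the NADPH oxidase, which makes superoxide, were all below 1, from Ncf1 at 2.30-fold lower (2.01 to 2.64) through Ncf4 at 1.98, Cyba at 1.91 and Rac2 at 1.88 to Cybb at 1.46. After the correction all 5 stayed below 1, against 49.7% of all genes, from Ncf1 at 2.12-fold lower to Cyba at 1.36-fold. Of 7 granulopoiesis factors 6 were at least 2-fold lower (85.7%, against 12.4% of all genes). Spi1, which encodes PU.1, had 163.0 CPM in WT and 43.30 in KO, 3.76-fold lower (3.46 to 4.09), Gfi1 was 3.37-fold lower on 34 and 8 reads, and Cebpb 3.32-fold lower (3.21 to 3.44). Irf8 was 2.14-fold and Cebpa 2.13-fold lower, and Runx1 had a ratio of 0.997. These factors are rich in GC, with a median of 57.4%. After the correction 3 of the 7 (42.9%) were at least 2-fold lower, against 7.05% of all genes, with Spi1 at a ratio of 0.504. Hepatocytes and macrophages express Cebpa and Cebpb too, and Spi1 and Irf8 are expressed by macrophages.

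Most granule proteins outside the members had ratios above 1. Of 6 with 20 or more reads, 5 were above 1 and 1 (16.7%) was below, whereas 54.2% of all genes were below. After the correction 4 were above 1 and 33.3% were below, whereas 49.7% of all genes were below. Lcn2, the siderophore-binding lipocalin that hepatocytes also secrete, had a ratio of 1.21 (1.16 to 1.26), Anxa1 1.20 (1.03 to 1.39; 1.01 after the correction) and the elastase inhibitor gene Serpinb1a 1.62 (1.19 to 2.20). Olfm4, olfactomedin 4, had 39 and 101 reads (ratio 3.27, 2.24 to 4.86); gut epithelium also expresses it. Markers of biliary and mucosal epithelium were higher in KO beside it: 7 of 9 were above 1, and their sum went from 165.7 CPM in WT to 527.3 in KO, a ratio of 3.18 (3.06 to 3.32). Among them Dmbt1 had 20 and 4319 reads, Tff2 4 and 62, Muc1 124 and 548 and Krt19 228 and 767, whereas Sox9 and Cldn4 were below 1, and the part of these cells in the Olfm4 and Lcn2 values was not tested. Chil3 had a ratio of 1.01 (0.846 to 1.22), 0.851 after the correction, and Lyz2 was 1.11-fold lower (1.05 to 1.17). Bpi and Ms4a3, a marker of granulocyte and monocyte progenitors, had 0 reads in both libraries. Fcnb had 1 and 0 and Prss57 0 and 1, the same low range as the azurophil members other than Prtn3.

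Late neutrophil genes outside the members split as the mature members did. Asprv1 was 2.20-fold lower (1.74 to 2.80) and Alox5ap, the activator of 5-lipoxygenase, 1.54-fold. Slfn4, at 399.2 and 249.8 CPM, was 1.60-fold lower (1.54 to 1.66). Ifitm1 and Ifitm6 had ratios of 1.14 (1.06 to 1.22) and 1.10 (0.889 to 1.35), the second of which turned to 0.919 after the correction, and Alox5 had 29 and 23 reads, 1.46 CPM in each library.

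**Figure D4:**
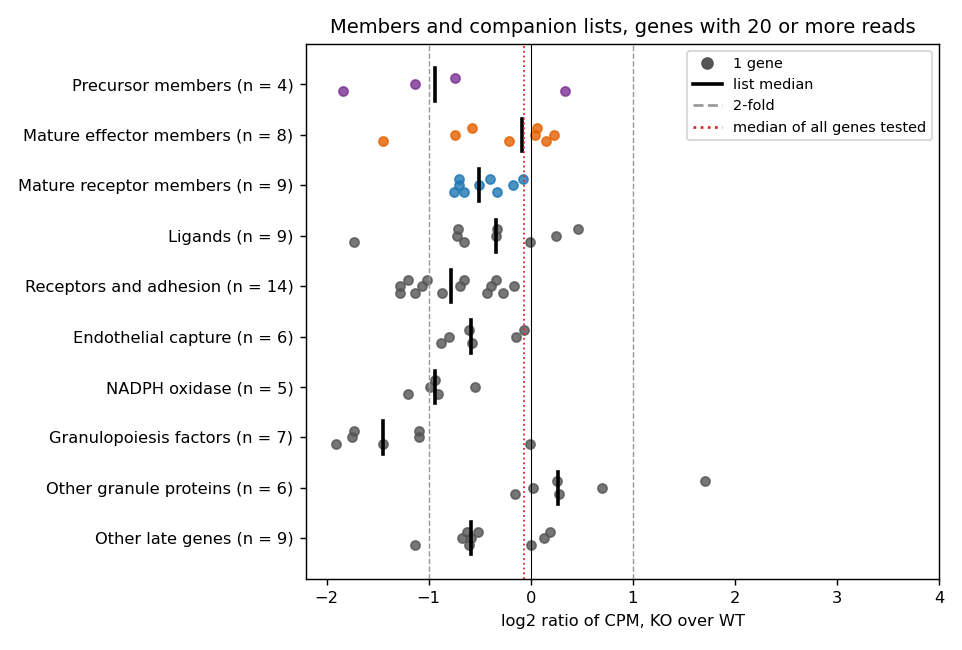
Log2 ratio of CPM, KO over WT, of single genes (points) in the member groups and the companion lists, with the list median as a bar, 2-fold as dashed lines and the median of all genes tested as a dotted line. Granulopoiesis factors have the lowest median, -1.45, and other granule proteins the highest, 0.27.

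Markers of other cells moved beside these genes. For the counts that follow, 54.2% of all genes were below 1, and 49.7% after the correction. All 10 Kupffer cell markers were below 1 and 5 at least 2-fold lower (50%, against 12.4% of all genes). The sum of the 10 went from 1348 CPM in WT to 542.8 in KO. Macrophages also express Clec4e, Clec4d, Fpr1, Fpr2, Trem1, Cd33, Spi1 and the oxidase genes, so these are not specific to neutrophils. Monocyte markers summed to 218.7 and 223.2 CPM, with 3 of 7 below 1 and S100a4 at 0 in both. The 8 hepatocyte markers went from 62007 to 98922 CPM with 7 of 8 above 1, and all 6 erythroid markers were above 1, at 3728 and 5326 CPM. All 8 markers of T and NK cells, which also express Itgal and Itgb2, were below 1, and their sum went from 62.22 CPM in WT to 27.81 in KO, a ratio of 0.447 (0.400 to 0.499). B cell markers summed to 27.54 and 17.21 CPM, with 4 of 5 below 1. Endothelial markers, of cells that also express Sele and Selp, summed to 569.4 and 450.5 CPM with 5 of 6 below 1, or 3 of 6 after the correction, and Cdh5 was 1.68-fold lower. Eosinophil markers were low, at 5.44 and 3.62 CPM, with Epx and Ear1 at 0 in both. The part of these cell types in the differences was not tested.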

How the data were processed

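RNA of liver was measured in 1 WT and 1 KO library, grouped by the genotype labels. Reads were handled with TopHat2 and HTSeq 0.6.1 on GRCm38, per the submitters' processing notes, while the sources used here give no strand setting or annotation release. The files deposited by the authors are titled FPKM, but their values are whole-number read counts with unequal totals, and were read as raw counts. The 209 unannotated entries (0.652% of reads in WT, 0.496% in KO) were left out.

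CPM ratios, FPKM over the exon union of GENCODE M21, and exact intervals were computed in Python 3.11.15 with pandas 2.3.3 and scipy 1.17.1; edgeR 4.0.16 gave TMM factors only. The correction subtracts the median log2 ratio of genes with 100 or more reads in 10 GC by 4 length bins; all 34 members had a GC value. It also removes real differences that go with GC content or length. The steps were tested on simulated counts. Promoter sequences are from RefSeq.

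The members and lists were chosen with earlier results of these data known. All members are named, as are the 3 highest and 3 lowest genes of each companion list with 20 or more reads; others were chosen after their values were seen. A few companion genes are not reported here, and the list counts leave them out. Alternatives were other scalings, read minimums, pseudocounts and the correction.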

Additional observations from a re-analysis of the deposited data

How the results depend on the processing

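No paired analysis was possible because each group has 1 library. With TMM factors, median of ratios size factors or the total over protein-coding nuclear genes, all 7 summary values and counts stayed within their intervals or within 1.5 times, and no member changed direction. The count of members at least 2-fold higher was 0 under every alternative run. Members at least 2-fold lower numbered 3, but 1 with a minimum of 100 reads, 1 with 1 CPM added, and 10 at a threshold of 1.5-fold, the last chosen after seeing the data; a higher minimum and an added CPM act on genes with few reads by construction. With the GC and length correction the summed log2 ratio of mature genes went from -0.394 to -0.562 and that of precursor genes from -1.288 to -0.999. Lrg1 turned to 0.330 and Hp to 0.205, and 12 further members left their counting interval. S100a8, Mmp8, Retnlg, Stfa2l1 and Cd177, whose intervals include no difference, also changed direction. The cause was not tested. Without S100a9, the most abundant mature member, the mature sum was -0.442, and without Cebpe the precursor sum was -0.671. By uncorrected reads, the factor of precursor against mature reads went from 0.538 to 0.825 without Cebpe, 0.725 without Cebpe and Prtn3 and 0.492 without Prtn3. These alternatives were chosen after seeing the data, and the factor was not computed after the correction. Depth limits Mpo, Elane, Ctsg and Camp, with under 20 reads each, and Ly6g, Ltf, Prtn3 and Stfa2l1, whose intervals relative to their ratio are the widest among the rest.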

Other observations

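Gene families around the members were read after the members' values had been seen. In the Clec4 cluster of chromosome 6, Clec4n (Dectin-2), next to Clec4d and Clec4e, had 277 and 143 reads in WT and KO (ratio 0.651, interval 0.528 to 0.800). The neighbouring Clec4a1, Clec4a2 and Clec4a3 had ratios of 1.03 (0.895 to 1.19), 1.01 (0.733 to 1.38) and 0.989 (0.763 to 1.28), though all 3 lay between -0.32 and -0.21 on the log2 scale after the GC and length correction. On chromosome 17, Trem3 followed Trem1, with 145 and 72 reads and a ratio of 0.626 (0.465 to 0.836), and Treml2 had 176 and 52 reads, a ratio of 0.373 (0.268 to 0.510). Treml4 had a ratio of 0.677 (0.568 to 0.805), and Treml1, a platelet receptor, 0.788 (0.517 to 1.19). The formyl peptide receptor genes Fpr-rs3, Fpr-rs4, Fpr-rs6 and Fpr-rs7 had 0 reads in both libraries.

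The S100a genes of chromosome 3 outside the members that had 20 or more reads had ratios above 1, as S100a8 did before the correction. S100a10 had a ratio of 1.20 (1.13 to 1.27), S100a13 1.24 (1.06 to 1.46) and S100a1 1.11 (1.05 to 1.18). The intervals of S100a6, at 1.19 (0.979 to 1.44), and S100a16, at 1.08 (0.945 to 1.23), include no difference. Each of these genes stayed above 0 on the log2 scale after the correction, whereas S100a8 and S100a9 were then below 0. S100a14, an epithelial member, had 0 reads in WT and 16 in KO, beside the markers of biliary and mucosal epithelium, whose summed ratio was 3.18 (3.06 to 3.32).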
